A study of Mus musculus with 10 samples.

Results

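Interferon-stimulated genes are described here across mouse kidney ureteric bud (UB) organoids, collecting duct (CD) organoids and adult mouse collecting duct cells (adult mCD). The genes are the 37 rows of the deposited table, of 39273 in all, whose symbol is on a list of interferon-stimulated genes, a rule that itself uses no measured value. Each of the 37 was found once and each passed the minimum of 10 counts summed over the 10 libraries. The list runs over 3 RNA sensors, 3 transcription factors, 4 IFIT genes, 5 oligoadenylate synthetase (OAS) genes, 4 dynamin-like or membrane restriction factors, 2 genes of the ISG15 system, 3 genes of the PARP and DTX3L group, 3 guanylate-binding proteins (GBP), 3 antigen processing genes, 1 chemokine and 6 others.

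The 5 groups held 2 libraries each. UB organoids had been grown for 5, 10 or 20 days (D5, D10 and D20) from ureteric buds taken at embryonic day 11 from Wnt11-RFP +/- embryos of a C57BL/6 x Swiss Webster cross, embedded in Matrigel in the UB medium mUBCM. That medium carries JAK Inhibitor I beside GDNF, FGF9, R-spondin 1, CHIR99021, LDN-193189, A83-01, TTNPB and SB202190. CD organoids had been made from UB organoids of day 10 in a differentiation medium with FGF9, Y27632, aldosterone, vasopressin, PD0325901 and DAPT, in which no JAK inhibitor is listed. The medium, the presence of the JAK inhibitor and the group therefore cannot be told apart. By the study's methods CD organoids also spent further days in that medium after day 10, so they differ from D10 in time in culture as well. Adult mCD were Hoxb7-Venus+ cells sorted from kidneys of mice aged 2 months, as the series design has it, whereas the sample labels call them organoids and give them the age and genotype of the others. The study describes its experiments in general as repeated independently, but neither the labels nor its methods say whether the 2 libraries of a group came from separate cultures or animals, so that p-values measure the spread between these libraries, which may be technical.

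Interferons are secreted proteins that cells release when they sense viral nucleic acid. Type I and type III interferons bind receptors coupled to the kinases JAK1 and TYK2, which phosphorylate STAT2, and STAT2 with IRF9 is part of a complex that binds the interferon-stimulated response element (ISRE) in promoters. Interferon gamma signals through JAK1 and JAK2. Many of the induced proteins restrict viruses or sense their RNA, and epithelia hold a low level of several of them without infection.

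Total counts ran from 22858971 to 24536676 at D5 and D10 and from 11913613 to 16759872 in the other libraries. The detection limit used here, 3 counts, equalled between 0.109 and 0.241 CPM (counts relative to library size), a limit that covers counting error only. Library sizes were scaled with TMM factors, which lay at 0.792 and 0.793 in adult mCD and between 0.999 and 1.12 in the other libraries. Mitochondrial transcripts took between 0.969% and 1.58% of the counts at D5 and D10, between 3.10% and 3.39% at D20 and in CD organoids, and 9.64% and 9.86% in adult mCD, and their part in the results was not tested. Transcripts of 4 Y-linked genes had between 1 and 24 counts at D5 and D10 and between 3332 and 4076 in D20, CD organoid and adult mCD libraries. CD organoids and D10 thus also differ in these genes, by at least 8.21 on the log2 scale. D20 likewise differs from D10 by at least 7.61 and from D5 by at least 9.07. The part of this difference in changes between culture days, or between D10 and CD organoids, was not tested. The study's methods do not say whether the D10 libraries come from the cultures that gave the CD organoids. Against D20, 2 of the 4 were higher in CD organoids at the looser threshold described below, by at most 0.62. Of 4 UB progenitor markers, Ret, Wnt11 and Etv5 fell in CD organoids against both D10 and D20, as defined below. Sox9 differed by -0.37 and -0.07 on the log2 scale and was not called, though against D10 it was lower at the looser threshold. Wnt11 had already fallen within UB organoids, by 4.38 from D5 to D20. Ret stood between 610 and 2100 CPM in UB organoids, between 15.8 and 17.4 CPM in CD organoids and at 10.0 and 0.943 CPM in adult mCD. Of 8 collecting duct markers, Aqp2, Aqp3, Foxi1 and Atp6v1b1 rose in CD organoids against both days, and Hoxb7 was lower at the looser threshold, by -0.63 and -0.27. In adult mCD against CD organoids Aqp2 and Aqp3 rose, and Foxi1, Hoxb7, Gata3 and Cdh1 were lower at the looser threshold. The collecting duct water channel Aqp2 reached 632 and 485 CPM in CD organoids and 4542 and 4374 CPM in adult mCD, with at most 6.87 CPM in UB organoids.

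To show the sequence through which these genes are known to respond, the promoter windows of RefSeq (GRCm38.p6, 250 bases before to 50 bases after each start) were searched for the ISRE-like letters GAAA, any 2 bases and GAAA again, on either strand. Of the 37 genes, 28 had 32 windows, and 17 of these windows (53.1%) held the letters, against 1131 of all 32851 windows (3.44%). By gene, 16 of 28 held them: Bst2, Cxcl10, Ddx58, Gbp2, Gbp3, Gbp7, Ifih1, Ifit1, Ifit3, Ifit3b, Isg15, Oas1a, Oas3, Rsad2, Stat2 and Trim30a. No entry was given for Dhx58, Oas2, Mx1, Mx2, Usp18, Parp9, Parp14, Rtp4 and Ifi27. Among genes called in at least 1 of the 7 comparisons below, 13 of 23 held the letters, and among those called in none 3 of 5. Below are the 200 bases before the start of each of the 7 genes that were called in 4 or more comparisons and hold the letters there, 5′ to 3′ on the strand of the gene, with the matching letters in capitals. They lie at chr3:142620463-142620662 (plus strand) for Gbp2, chr7:104465194-104465393 (minus strand) for Trim30a, chr19:34640689-34640888 (plus strand) for Ifit1, chr19:34583329-34583528 (plus strand) for Ifit3, chr19:34607757-34607956 (plus strand) for Ifit3b, chr4:156200819-156201018 (minus strand) for Isg15 and chr5:120907526-120907725 (minus strand) for Oas1a.
Gbp2: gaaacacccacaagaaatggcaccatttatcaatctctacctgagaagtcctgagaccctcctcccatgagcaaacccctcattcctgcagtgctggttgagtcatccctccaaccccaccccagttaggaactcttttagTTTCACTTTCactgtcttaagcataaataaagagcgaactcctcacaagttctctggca
Trim30a: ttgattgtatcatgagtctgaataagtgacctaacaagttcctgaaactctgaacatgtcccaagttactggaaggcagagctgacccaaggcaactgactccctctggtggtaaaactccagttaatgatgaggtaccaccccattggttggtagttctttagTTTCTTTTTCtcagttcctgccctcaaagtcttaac
Ifit1: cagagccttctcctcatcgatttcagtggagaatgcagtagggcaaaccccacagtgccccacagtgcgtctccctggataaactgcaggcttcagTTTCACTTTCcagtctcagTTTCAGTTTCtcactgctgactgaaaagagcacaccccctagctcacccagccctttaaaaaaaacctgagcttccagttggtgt
Ifit3: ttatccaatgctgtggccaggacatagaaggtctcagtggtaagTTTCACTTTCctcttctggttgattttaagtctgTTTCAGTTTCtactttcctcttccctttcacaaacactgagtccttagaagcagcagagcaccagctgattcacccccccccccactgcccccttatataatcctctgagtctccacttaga
Ifit3b: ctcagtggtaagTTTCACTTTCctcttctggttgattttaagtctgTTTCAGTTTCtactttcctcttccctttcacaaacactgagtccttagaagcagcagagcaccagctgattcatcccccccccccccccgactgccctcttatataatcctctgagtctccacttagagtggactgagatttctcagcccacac
Isg15: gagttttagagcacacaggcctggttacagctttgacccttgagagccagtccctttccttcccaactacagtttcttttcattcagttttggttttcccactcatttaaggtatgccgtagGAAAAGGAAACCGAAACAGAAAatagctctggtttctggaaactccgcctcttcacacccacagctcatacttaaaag
Oas1a: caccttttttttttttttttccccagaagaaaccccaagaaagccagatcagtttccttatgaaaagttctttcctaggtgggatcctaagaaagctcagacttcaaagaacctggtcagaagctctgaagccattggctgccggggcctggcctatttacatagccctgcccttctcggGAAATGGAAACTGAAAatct
In Gbp2, Trim30a, Ifit1, Ifit3 and Ifit3b the letters stand on the opposite strand and so read TTTC, 2 bases and TTTC, while in Isg15 and Oas1a they stand on the strand of the gene, where 3 and 2 matches overlap. Ifit1, Ifit3 and Ifit3b, neighbours on chromosome 19, hold the same pair of matches. A match describes the sequence only.

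The genes as a group stood low in UB organoids, higher in CD organoids and highest in adult mCD. Their summed level was between 186 and 235 CPM in the 6 UB organoid libraries, 522 and 522 CPM in the CD organoid libraries, and 1124 and 980 CPM in adult mCD. Without the gene Ddx58 the sums were 114 to 165 CPM, 388 and 400 CPM, and 1018 and 896 CPM. The median over the 37 genes was between 0.595 and 0.849 CPM in UB organoids, 4.49 and 5.21 CPM in CD organoids, and 23.6 and 21.1 CPM in adult mCD. Between 22 and 29 of the genes exceeded 3 counts in a UB organoid library, against 36 in each CD organoid and adult mCD library. In bulk RNA, fewer expressing cells and less RNA per cell cannot be told apart.

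**Figure D1:**
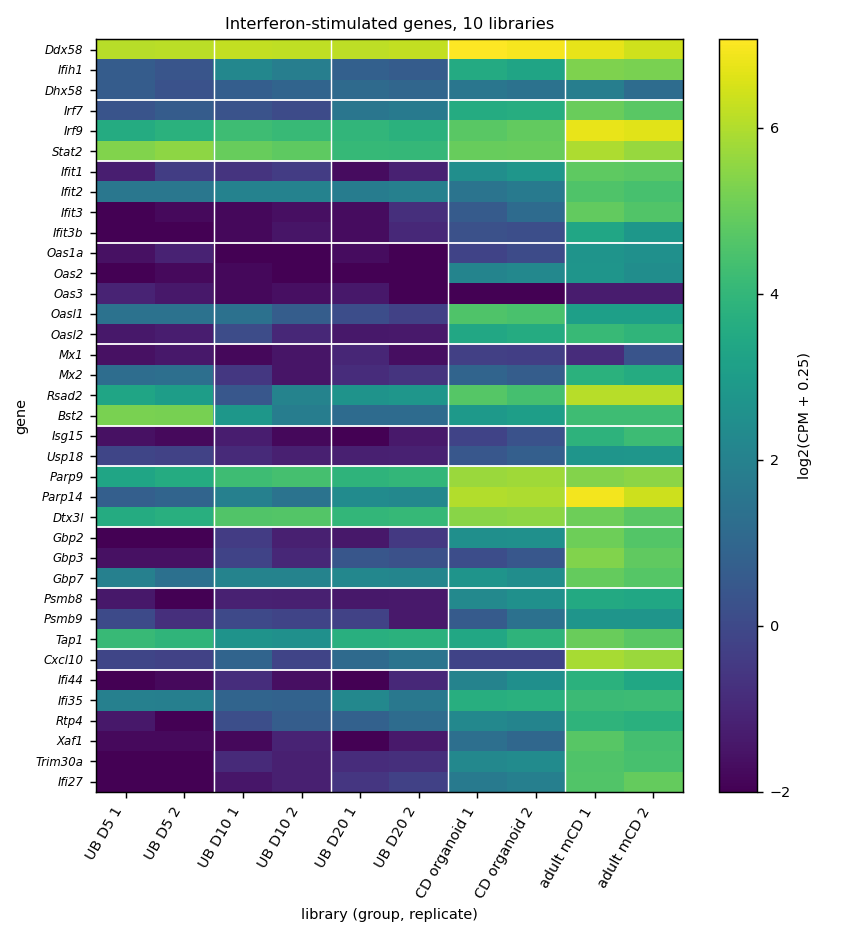
Heat map of log2(CPM + 0.25) of the 37 interferon-stimulated genes (rows, ordered by role, white lines between roles) in the 10 libraries (columns, 2 per group). Most rows are dark in the 6 UB organoid libraries and lighter in CD organoids and adult mCD, while Ddx58 is light in all 10 and Bst2 is lightest at D5.

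Genes were compared with edgeR's quasi-likelihood test on the counts, and a gene was called, here written as rose or fell, when its Benjamini-Hochberg adjusted p did not exceed 0.01 and it differed more than 4-fold. In CD organoids against D10, 20 of the 37 genes rose, where 4.96% of the 24410 genes tested rose, and none fell, where 5.71% fell. Against D20, 19 rose (4.74% of all genes) and none fell (4.73%). In adult mCD against D20, 29 rose (12.3%) and none fell (6.89%), and against CD organoids 15 rose (9.84%) and none fell (4.50%). For these 4 counts of 0, the genes lower at an unadjusted p under 0.05 numbered 1, 1, 0 and 4, and DESeq2 and limma called 0 lower in each. The median log2 fold change of the 37 genes was 2.28 against D10 and 2.06 against D20 in CD organoids, where that of all genes was -0.15 and 0.00. It was 4.40 in adult mCD against D20 and 1.81 against CD organoids, where all genes had -0.06 and 0.00. With library totals in place of TMM factors, the median of all genes moved by -0.41 and -0.34 in these 2 comparisons, the share of higher genes among all calls went from 64.1% to 50.5% and from 68.6% to 55.6%, and 10 rather than 15 of the 37 genes were called higher in adult mCD than in CD organoids. Ifit1, Usp18, Gbp2, Gbp7 and Trim30a were the 5 lost. Of 95 values of the 37 genes called over the 7 comparisons, 31 moved by more than 1.5-fold when 1 library was left out, and the main ones are given with the genes. The comparisons share libraries, so they are given side by side only.

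**Figure D2:**
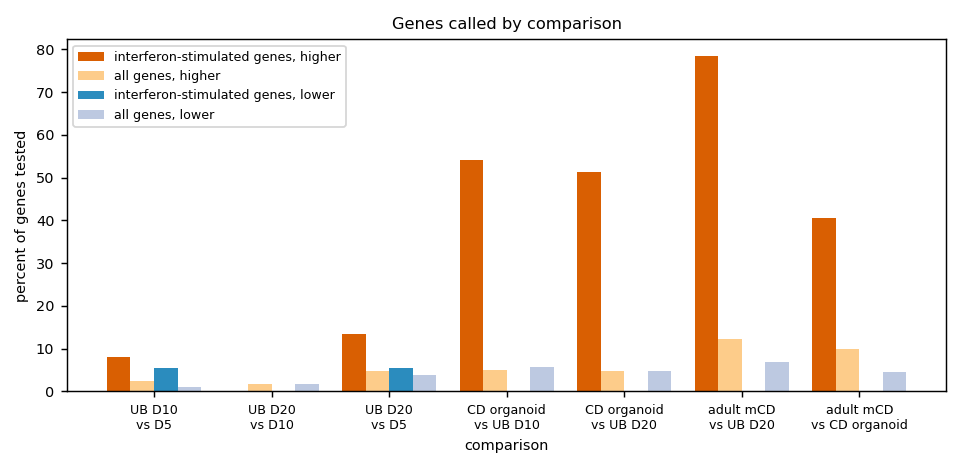
Bars give the percentage of genes called higher or lower in each of the 7 comparisons, for the 37 interferon-stimulated genes and for all 24410 genes tested. The genes called higher are 20, 19, 29 and 15 of 37 in the 4 comparisons with CD organoids or adult mCD, and none is called lower there.

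At a looser threshold, an adjusted p not above 0.05 whatever the fold change, 31 genes were higher and 0 lower in CD organoids against D10 (22.1% and 25.2% of all genes), and 29 were higher and 1 lower against D20 (21% and 21.3%). For adult mCD, 35 were higher and 0 lower against D20 (29.3% and 27.1%), and 28 were higher and 4 lower against CD organoids (26.1% and 23.8%). In 29 genes both CD organoid libraries lay above all 6 UB organoid libraries, as did 21.4% of all genes tested. The exceptions were Stat2, Ifit2, Oas3, Mx2, Bst2, Gbp3, Tap1 and Cxcl10. As a median over the 37 genes, the level in CD organoids was 28.2% of that in adult mCD, and the level in UB organoids 5.62%.

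The sensors behaved unequally. Ddx58, which encodes the viral RNA sensor RIG-I, was among the 3 genes of the list with the highest mean RPKM and stood per kilobase of exon first in D10, D20 and CD organoids. It had between 68.3 and 75.4 CPM (median 72.6) in UB organoids, 134 and 122 CPM in CD organoids and 106 and 83.9 CPM in adult mCD. Its groups of UB and CD organoids did not overlap, but the difference stayed under 2-fold, with a log2 fold change of 0.80 ± 0.10 (SE) against D20 (adjusted p = 1.27e-05), and it was called in no comparison. Ifih1, which encodes the related sensor MDA5, had 1.46 and 1.32 CPM at D20, 11.4 and 9.54 CPM in CD organoids and 39.6 and 37.6 CPM in adult mCD. It rose in CD organoids against D20, by 2.87 ± 0.21 on the log2 scale (adjusted p = 8.89e-08), and in adult mCD against D20 (4.74 ± 0.20, adjusted p = 1.53e-10). At D10 Ifih1 stood at 4.32 and 3.39 CPM, above all other UB organoid libraries, and against that day it was 1.43 ± 0.17 higher in CD organoids (adjusted p = 9.77e-06), short of 4-fold. Dhx58, the third sensor, stayed between 0.979 and 3.39 CPM throughout and was not called.

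Of the factors that carry the signal to the promoters, Irf7, which amplifies interferon production, moved most. It had between 0.802 and 1.31 CPM at D5 and D10, 2.67 and 3.04 CPM at D20, 11.8 and 12.3 CPM in CD organoids and 31.7 and 26.6 CPM in adult mCD. No 2 neighbouring groups in this order overlap from D20 on. Irf7 rose in CD organoids by 3.68 ± 0.21 against D10 (adjusted p = 4.92e-09) and by 2.06 ± 0.19 against D20 (adjusted p = 8.05e-07), and the latter lost the call without the first D20 library or with a prior count of 5. Irf9, the DNA-binding partner of STAT2, had between 11.8 and 18.9 CPM (median 14.5) in UB organoids, 26.8 and 29.7 CPM in CD organoids and 107 and 101 CPM in adult mCD. It rose in adult mCD against D20 (2.84 ± 0.11, adjusted p = 7.28e-11), while in CD organoids it was 0.96 ± 0.11 above D20 without passing 4-fold (adjusted p = 9.92e-06). In the annotation Irf7 overlaps Phrf1 and Irf9 overlaps Rnf31. Stat2 went the other way in culture, from 40.3 and 46.1 CPM at D5 through 30.7 and 28.0 CPM at D10 to 16.5 and 16.3 CPM at D20, then 30.5 and 31.4 CPM in CD organoids and 61.9 and 50.6 CPM in adult mCD. Its difference between D20 and D5 was -1.40 ± 0.12 (adjusted p = 4.26e-07), and it was called in no comparison.

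The 4 IFIT genes, whose products bind viral RNA, lie together at chr19:34550694-34650009. Ifit1 had between 0.0607 and 0.530 CPM (median 0.297) in UB organoids, 5.34 and 6.58 CPM in CD organoids and 28.0 and 26.4 CPM in adult mCD. It rose by 3.56 ± 0.32 against D10 (adjusted p = 4.7e-07) and 5.05 ± 0.42 against D20 (adjusted p = 3.05e-07; 5.72 without the second D20 library) in CD organoids, and again between CD organoids and adult mCD (2.19 ± 0.24, adjusted p = 3.47e-06). Its neighbour Ifit2 did not share this step: it had between 2.73 and 3.79 CPM (median 3.46) in UB organoids and 2.56 and 2.97 CPM in CD organoids, and only in adult mCD, at 23.5 and 21.1 CPM, did it stand above. Ifit2 rose in adult mCD against CD organoids by 2.99 ± 0.18 (adjusted p = 1.16e-08), while CD organoids differed from D10 by -0.45 ± 0.19 (adjusted p = 0.0744).

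Ifit3 and Ifit3b are near-identical copies, so that the counts of either depend on how shared reads were split. Ifit3 stood at 0 to 5 counts in each UB organoid library, at 1.28 and 2.00 CPM in CD organoids and at 29.0 and 24.1 CPM in adult mCD. Ifit3b stood at 0 to 4 counts in UB organoids, at 0.926 and 0.882 CPM in CD organoids and at 9.95 and 6.76 CPM in adult mCD. Both rose in CD organoids against D10 and D20 and in adult mCD against CD organoids, the last by 3.98 ± 0.30 for Ifit3 (adjusted p = 8.12e-08) and 3.13 ± 0.38 for Ifit3b (adjusted p = 1.56e-05). For Ifit3, with 3 counts over both D10 libraries, the ratio of CD organoids to D10 was 28.5 with a 95% counting interval from 9.11 to 143. Against D20 the log2 fold change of Ifit3 was 2.13 without the first D20 library and 3.89 without the second, and that of Ifit3b was 1.59 and 3.07. The call of Ifit3b against D20 was lost without the first D20 library or without either CD organoid library.

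The oligoadenylate synthetases make the messenger that activates the RNA-degrading enzyme RNase L. Oas2 had 0 or 1 count in each of the 6 UB organoid libraries, 3.99 and 4.41 CPM in CD organoids and 6.41 and 5.19 CPM in adult mCD. The CD organoids were thus at least 22.1-fold above D20, where both libraries were at 0, and adult mCD at least 30.5-fold. Between adult mCD and CD organoids the log2 fold change of Oas2 was 0.46 ± 0.30 (adjusted p = 0.236), within the spread of the test. Oas1a stood at 0 to 5 counts in UB organoids, at 0.641 and 0.802 CPM in CD organoids and at 6.26 and 5.58 CPM in adult mCD, so that in contrast to Oas2 it rose again between the last 2 groups (2.95 ± 0.38, adjusted p = 2.81e-05). The call of Oas1a in CD organoids against D20 was lost without the second D20 library, and the log2 fold change was 3.85 without the first. The second D20 library stood at 0 counts for Oas1a, so that 3.85 depends on the prior count. Oas3 stood at 0 to 5 counts in every library, with both CD organoid libraries at 0, and was not called.

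The 2 OAS-like genes, whose products carry ubiquitin-like domains, had the highest levels of the family per kilobase of exon in CD organoids. Oasl1 had 2.43 and 2.45 CPM at D5, 2.38 and 1.35 CPM at D10, 0.849 and 0.595 CPM at D20, 23.6 and 21.7 CPM in CD organoids and 8.37 and 8.49 CPM in adult mCD. The CD organoid libraries thus lay above both the UB organoids and the adult cells. Oasl1 rose in CD organoids by 3.57 ± 0.23 against D10 (adjusted p = 1.88e-08) and 4.86 ± 0.28 against D20 (adjusted p = 7.34e-09), and adult mCD differed from CD organoids by -1.42 ± 0.21 (adjusted p = 5.94e-05), short of 4-fold. Oasl2 had between 0.121 and 0.832 CPM (median 0.148) in UB organoids, 10.6 and 11.6 CPM in CD organoids and 16.9 and 14.9 CPM in adult mCD. It rose by 4.24 ± 0.32 against D10 (adjusted p = 9.51e-08) and 5.95 ± 0.42 against D20 (adjusted p = 6.72e-08), and adult mCD and CD organoids differed by 0.52 ± 0.25 (adjusted p = 0.103). Without the first D10 library, where Oasl2 was highest among UB organoids, its log2 fold change against D10 was 5.18. The 3 Oas genes measured here and Oas1 copies outside the list are similar in sequence, so that their split of reads is uncertain.

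Among the membrane and dynamin-like restriction factors, Bst2 (tetherin, which holds budding virus at the cell surface) was the gene of the list that fell most in culture. It had 37.6 and 36.3 CPM at D5, 6.78 and 3.35 CPM at D10, 2.00 and 1.98 CPM at D20, 7.12 and 8.26 CPM in CD organoids and 18.6 and 18.5 CPM in adult mCD. Its D5 libraries were the highest of all 10, and per kilobase of exon Bst2 was the most abundant gene of the list at D5 alone, with 40.9 CPM per kilobase. Bst2 fell by 2.86 ± 0.22 on the log2 scale from D5 to D10 (adjusted p = 8.88e-07) and by 4.18 ± 0.26 from D5 to D20 (adjusted p = 3.96e-08). Without the first D10 library, the change from D5 to D10 was -3.45. In CD organoids it was 1.92 ± 0.29 above D20 (adjusted p = 0.0001), close to but under 4-fold, and in adult mCD it rose against D20 by 3.19 ± 0.27 (adjusted p = 1.94e-07).

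Mx2, listed in the annotation as a polymorphic pseudogene, was likewise highest among UB organoids at D5. It had 2.13 and 2.24 CPM at D5, 0.436 and 0.109 CPM at D10 and 0.303 and 0.397 CPM at D20, and fell from D5 to D10 by 2.80 ± 0.38 (adjusted p = 7.97e-05) and from D5 to D20 by 2.48 ± 0.41 (adjusted p = 0.000203). In CD organoids Mx2 had 1.64 and 1.36 CPM, and in adult mCD it had 13.7 and 11.8 CPM. In CD organoids it was called against D10, with a log2 fold change of 2.28. Its values moved with the 2 libraries of D10: without the first, the log2 fold change was -3.76 from D5 to D10 and 3.25 in CD organoids against D10, and without the second it was -2.20 and 1.68, the last no longer called. Mx1, an interferon-induced GTPase against influenza that is defective in many laboratory strains, was not called, with between 1 and 13 counts in every library. Rsad2 (viperin, an enzyme that makes a chain-terminating nucleotide) had 9.82 and 8.04 CPM at D5, 1.11 and 3.94 CPM at D10, 6.01 and 6.61 CPM at D20, 25.3 and 20.8 CPM in CD organoids and 67.3 and 68.3 CPM in adult mCD. The 2 libraries of D10 lay apart for Rsad2, and it was called in CD organoids against D10 (3.14 ± 0.32, adjusted p = 1.66e-06) but at 1.86 ± 0.30 not against D20 (adjusted p = 0.000169). The log2 fold change against D10 was 2.55 without the first D10 library and 4.33 without the second. Without the second D10 library Rsad2 would also have been called lower at D10 than at D5, by -2.96 on the log2 scale. In adult mCD it rose against D20 by 3.42 ± 0.30 (adjusted p = 2.17e-07).

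Isg15, the ubiquitin-like modifier attached to proteins in the interferon response, was close to the limit of detection in organoids. It stood at 0 to 4 counts in UB organoids, at 9 and 12 counts (0.641 and 0.962 CPM) in CD organoids and at 14.2 and 18.5 CPM in adult mCD. In CD organoids the ratio to D20, which had 2 counts over both libraries, was 12.5 with a 95% counting interval from 3.06 to 110, and the calls against D10 and D20 were both lost without the second CD organoid library, that against D10 also without the second D10 library, and that against D20 also without the first D20 library. Its log2 fold change in CD organoids was 2.51 against D10, or 3.20 without the first D10 library, and 2.85 against D20, or 2.19 without the first and 3.998 without the second D20 library. The first D20 library stood at 0 counts for Isg15, so that 3.998 depends on the prior count. Adult mCD stood above CD organoids by 4.27 ± 0.37 (adjusted p = 3.57e-07), and in adult mCD Isg15 was second of the list per kilobase of exon, after Cxcl10. Usp18, the protease that removes ISG15 and also blocks the type I receptor, had between 0.182 and 0.683 CPM (median 0.238) in UB organoids, 1.14 and 1.44 CPM in CD organoids and 6.41 and 6.60 CPM in adult mCD. It rose by 2.25 ± 0.37 against D10 (adjusted p = 0.000168), by 2.46 ± 0.42 against D20 (adjusted p = 0.000281) and between CD organoids and adult mCD by 2.29 ± 0.29 (adjusted p = 1.46e-05). Both genes of the system were thus highest in adult mCD, with no overlap between CD organoid and adult libraries.

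**Figure D3:**
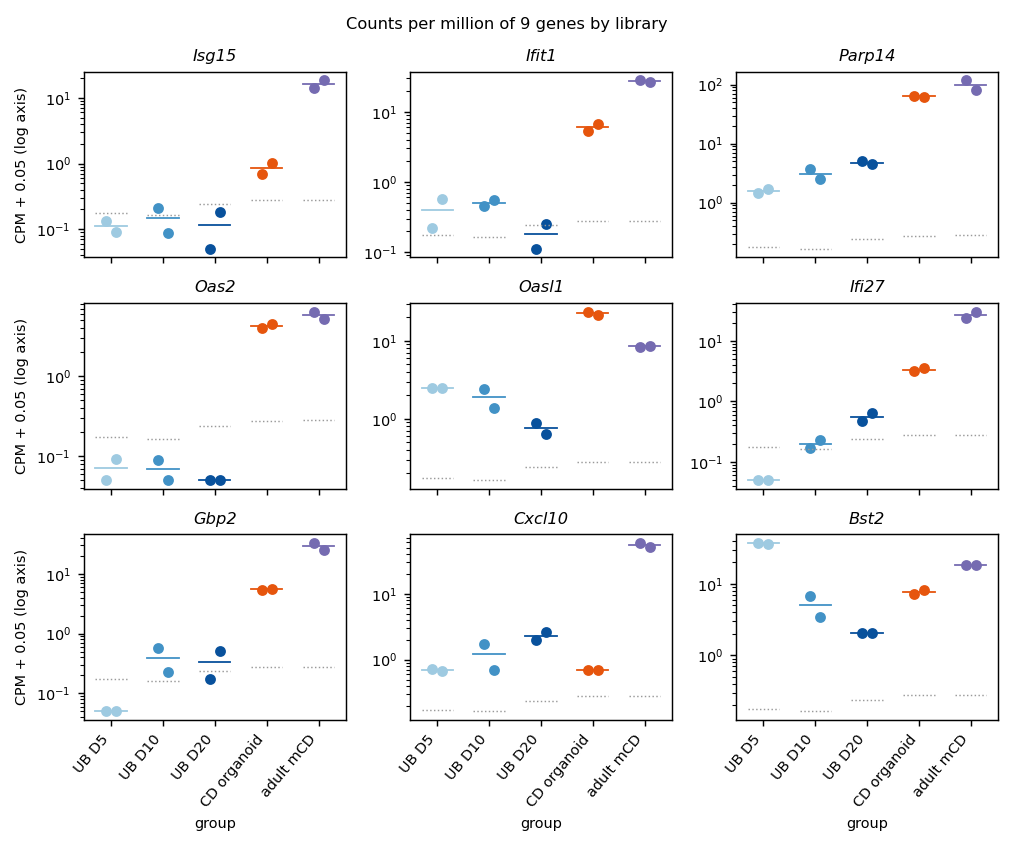
CPM of 9 genes in each library (points; log axis, with 0.05 added so that libraries at 0 can be drawn) by group, with the mean of the 2 libraries (solid bar) and the level of 3 counts (dotted bar). In CD organoids Oas2 stands at 72.4% and Parp14 at 63.0% of the adult level, and Oasl1 above it. Isg15, Ifit1, Ifi27 and Gbp2 are higher again in adult mCD, Cxcl10 is far higher in adult mCD than elsewhere, and Bst2 starts at 37.6 and 36.3 CPM at D5.

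The PARP and DTX3L genes split into 1 that rose and 2 that stayed under 4-fold. Parp14, an ADP-ribosyltransferase, had 1.41 and 1.63 CPM at D5, 3.65 and 2.48 CPM at D10, 4.98 and 4.43 CPM at D20, 64.3 and 62.2 CPM in CD organoids and 118 and 82.5 CPM in adult mCD. It rose in CD organoids by 4.35 ± 0.19 against D10 (adjusted p = 4.98e-10) and 3.73 ± 0.19 against D20 (adjusted p = 2.93e-09), while adult mCD stood only 0.67 ± 0.15 above CD organoids (adjusted p = 0.00206). Parp9 and Dtx3l, whose products form one complex and whose genes overlap head to head at chr16:35926511-35972605, moved less. Parp9 had between 9.82 and 20.9 CPM (median 15.2) in UB organoids, 51.6 and 54.8 CPM in CD organoids and 41.6 and 44.7 CPM in adult mCD. Dtx3l had between 11.6 and 24.8 CPM (median 16.1), 43.1 and 45.2 CPM, and 33.6 and 26.7 CPM in the same groups. Neither was called in any comparison, though both were higher in the CD organoid libraries than in all others. Adult mCD differed from CD organoids by -0.30 ± 0.11 for Parp9 (adjusted p = 0.0302) and -0.55 ± 0.12 for Dtx3l (adjusted p = 0.00126). With Ddx58 (-0.43 ± 0.10, adjusted p = 0.0022) and Oasl1, these were the 4 genes whose adult mCD libraries lay below both CD organoid libraries, whereas 31 lay above, beside 36.4% of all genes tested below and 36.1% above.

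The guanylate-binding proteins are GTPases that attack intracellular pathogens, and the 3 listed lie together at chr3:142530342-142638008. Gbp2 had 0 counts in both D5 libraries, 0.515 and 0.182 CPM at D10, 0.121 and 0.463 CPM at D20, 5.41 and 5.61 CPM in CD organoids and 33.2 and 24.7 CPM in adult mCD. It rose in CD organoids against D10 (3.81 ± 0.38, adjusted p = 2.61e-06) and D20 (4.03 ± 0.43, adjusted p = 6.4e-06) and again in adult mCD against CD organoids (2.38 ± 0.27, adjusted p = 9.66e-06). Without the first D10 library the log2 fold change of Gbp2 against D10 was 4.55, and against D20 it was 3.42 without the first D20 library and 5.00 without the second. Its neighbours were called in CD organoids against neither day. Gbp3 had 1.09 and 0.925 CPM at D20 and 0.854 and 1.12 CPM in CD organoids, then 40.0 and 28.6 CPM in adult mCD, and Gbp7 had 4.31 and 4.16 CPM at D20, 6.26 and 5.21 CPM in CD organoids and 30.0 and 25.2 CPM in adult mCD. Both CD organoid libraries of Gbp7 lay above all UB organoid libraries, and its log2 fold change was 0.56 ± 0.21 against D10 (adjusted p = 0.0477) and 0.44 ± 0.22 against D20 (adjusted p = 0.144). That of Gbp3 against D10 was 1.07 ± 0.41 (adjusted p = 0.0482). Both rose in adult mCD against CD organoids, Gbp3 by 5.05 ± 0.30 (adjusted p = 7.58e-09) and Gbp7 by 2.25 ± 0.20 (adjusted p = 5.38e-07).

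The antigen processing genes of the class I pathway lie side by side at chr17:34181987-34201454. Psmb8, a subunit of the immunoproteasome, had 0 to 5 counts in each UB organoid library, 4.56 and 5.61 CPM in CD organoids and 11.2 and 10.3 CPM in adult mCD, and rose in CD organoids by 4.39 ± 0.38 against D10 (adjusted p = 3.89e-07) and 4.83 ± 0.45 against D20 (adjusted p = 8.94e-07). Psmb9, another subunit, had between 0.132 and 0.768 CPM (median 0.632) in UB organoids, 1.28 and 2.33 CPM in CD organoids and 6.33 and 6.44 CPM in adult mCD. It was called against D20 (2.09 ± 0.53, adjusted p = 0.00563) but not against D10 (1.28 ± 0.45, adjusted p = 0.0318), and the call against D20 was lost without the second D20 or the second CD organoid library. The 2 libraries of D20 lay apart for Psmb9, and the value was 3.31 without the first and 1.48 without the second. Tap1, which carries peptides into the endoplasmic reticulum and overlaps Psmb9 at its start, had 16.9 and 15.1 CPM at D5, 5.99 and 5.58 CPM at D10, 12.8 and 13.7 CPM at D20, 10.7 and 14.5 CPM in CD organoids and 31.9 and 26.9 CPM in adult mCD. It was called in no comparison. Its CD organoid libraries lay on either side of those of D20, with a log2 fold change of -0.08 ± 0.16 (adjusted p = 0.765), and above those of D10, with 1.11 ± 0.17 (adjusted p = 6.99e-05).

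Cxcl10, the chemokine that draws T cells, was the gene that most separated adult mCD from CD organoids. It had 0.683 and 0.612 CPM at D5, 1.66 and 0.656 CPM at D10, 1.94 and 2.58 CPM at D20, 0.641 and 0.642 CPM in CD organoids and 59.2 and 51.6 CPM in adult mCD. It rose in adult mCD by 6.32 ± 0.32 against CD organoids (adjusted p = 1.53e-09) and 4.59 ± 0.26 against D20 (adjusted p = 2.9e-09). Cxcl10 was also the only gene of the 37 that was lower in CD organoids than at D20 at the looser threshold, with -1.73 ± 0.41 (adjusted p = 0.00352), on 9 and 8 counts. In the annotation it overlaps Art3.

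All of the 6 remaining genes rose in adult mCD against D20. Xaf1, an interferon-induced antagonist of apoptosis inhibitors, had 0 to 6 counts in UB organoids, 2.21 and 1.76 CPM in CD organoids and 25.8 and 20.2 CPM in adult mCD, and Ifi44 had 0 to 8 counts, 3.92 and 5.53 CPM, and 13.5 and 10.4 CPM. Trim30a had 0 counts in both D5 libraries, 5 to 7 counts in the D10 and D20 libraries, 4.41 and 4.89 CPM in CD organoids and 23.6 and 21.1 CPM in adult mCD. Ifi27, a small mitochondrial protein gene, had 0 counts at D5, 3 and 5 counts at D10, 7 and 9 counts at D20, 3.06 and 3.53 CPM in CD organoids and 23.8 and 30.3 CPM in adult mCD. These 4 rose in CD organoids against both D10 and D20, Xaf1 by 3.46 ± 0.46 (adjusted p = 2.71e-05), Ifi44 by 4.28 ± 0.50 (adjusted p = 7.63e-06), Trim30a by 4.06 ± 0.28 (adjusted p = 1.01e-07) and Ifi27 by 4.02 ± 0.33 (adjusted p = 4.78e-07) against D10. Without the first D10 library Ifi44 was 5.21 against D10, and without the second Ifi44 was 3.68 and Xaf1 4.41. Against D20, Ifi44 was 4.72, with 3.90 and 6.49 without the first and the second D20 library, and Xaf1 was 4.12, with 3.46 and 5.27. The first D20 library stood at 0 counts for both genes, so that 6.49 and 5.27 depend on the prior count. All but Ifi44 rose once more between CD organoids and adult mCD, Xaf1 by 3.49 ± 0.31 (adjusted p = 4.18e-07), Ifi27 by 3.02 ± 0.22 (adjusted p = 1.43e-07) and Trim30a by 2.25 ± 0.20 (adjusted p = 8.86e-07). Ifi35 had between 1.57 and 4.43 CPM (median 3.18) in UB organoids, 12.6 and 13.2 CPM in CD organoids and 17.9 and 18.4 CPM in adult mCD. It rose in CD organoids against D10 (2.96 ± 0.21, adjusted p = 4.34e-08) and stayed under 4-fold against D20 (1.81 ± 0.20, adjusted p = 4.59e-06). Rtp4, which in the annotation overlaps Masp1, had 0.128 and 0 CPM at D5, 0.872 and 1.35 CPM at D10, 1.52 and 2.05 CPM at D20, 4.49 and 4.01 CPM in CD organoids and 14.8 and 13.4 CPM in adult mCD. In CD organoids it was called against neither day.

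**Figure D4:**
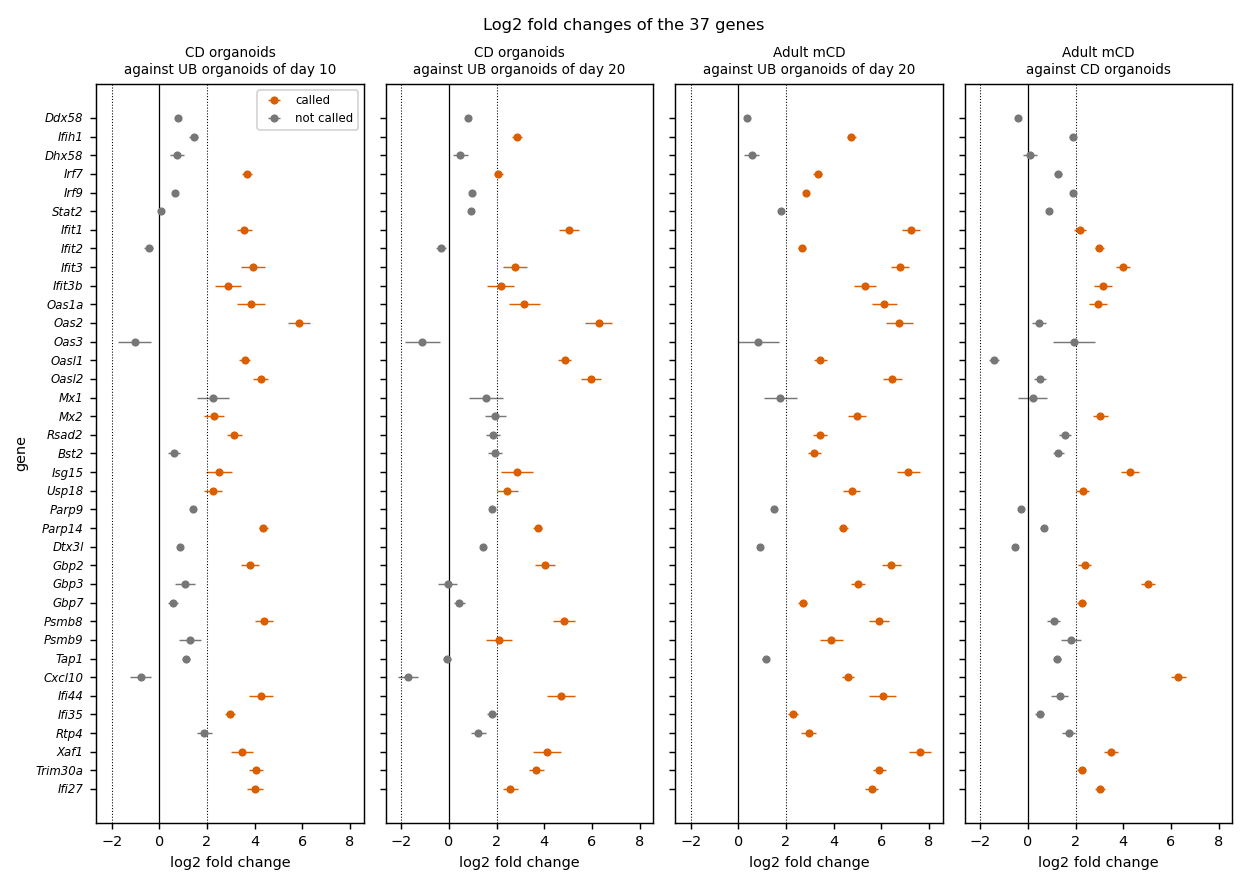
Log2 fold changes (points) with their standard errors (bars) of the 37 genes in 4 comparisons, with genes called in orange and others in grey. Dotted lines mark a 4-fold change. In adult mCD against D20 all points lie right of 0, from 0.37 for Ddx58 to 7.62 for Xaf1 (6.96 and 8.76 without the first and the second D20 library), and in adult mCD against CD organoids they run from -1.42 for Oasl1 to 6.32 for Cxcl10. The value 8.76 rests on a D20 library at 0 counts and depends on the prior count.

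Read across the comparisons, 17 genes rose in CD organoids against both D10 and D20, as did 3.20% of all genes tested. Of these, 7 were not called between adult mCD and CD organoids (1.83% of all genes): Irf7, Oas2, Oasl1, Oasl2, Parp14, Psmb8 and Ifi44. A further 7 genes rose in adult mCD against D20 and in CD organoids against neither day (8.68%): Irf9, Ifit2, Bst2, Gbp3, Gbp7, Cxcl10 and Rtp4. The 8 genes called in no comparison (70.0% of all genes) were Ddx58, Dhx58, Stat2, Oas3, Mx1, Parp9, Dtx3l and Tap1. The comparisons behind these groupings share libraries, the groupings follow the threshold, and Bst2, at 1.92 against D20, and Mx2, at 1.95, stood just under it.

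Within UB organoids the genes moved in both directions. From D5 to D10, Gbp2, Rtp4 and Trim30a rose (2.34% of all genes rose) and Bst2 and Mx2 fell (1.07% fell). Gbp2 and Trim30a rose from 0 counts at D5, which gives bounds of at least 2.79-fold and 1.84-fold, and both calls were lost without either of the D5 libraries, that of Gbp2 also without the first D10 library. From D5 to D20, Gbp2, Gbp3, Rtp4, Trim30a and Ifi27 rose (4.68%) and Bst2 and Mx2 fell (3.93%), the call of Gbp2 being lost without either D5 library or without the second D20 library. Here Gbp2, Trim30a and Ifi27 had 0 counts in both D5 libraries and 2 to 9 counts in the D20 libraries. The D20 libraries also differ from D5 and D10 in the Y-linked genes, as given above. The log2 fold change of Gbp2 was 2.88 from D5 to D10, or 2.07 without the first D10 library, and 2.65 from D5 to D20, or 3.28 and 1.72 without the first and the second D20 library. Rtp4 had 3 counts over both D5 libraries, and its ratio was 17.9 at D10 (95% counting interval 5.83 to 89.3) and 28.3 at D20 (9.20 to 141). Its log2 fold change was 3.32 at D10, with 4.39 and 2.67 without the first and the second D5 library, and 3.97 at D20, with 5.04 and 3.32. The second D5 library stood at 0 counts for Rtp4, so that 4.39 and 5.04 depend on the prior count. From D10 to D20 none was called higher or lower with edgeR (1.66% and 1.73% of all genes), nor with DESeq2 or limma, with 8 higher and 9 lower at an unadjusted p under 0.05. Leaving out the second D10 library gave 1 gene higher and 1 lower there. At the looser threshold, 6 were higher and 7 lower (13.0% and 16.0%), among them Irf7 with 1.62 ± 0.23 (adjusted p = 0.000172) and Ifih1 with -1.43 ± 0.22 (adjusted p = 0.000286). From D5 to D20, 11 were higher and 5 lower at this threshold (20.6% and 24.6%). The median log2 fold change of the 37 genes was 0.39 from D5 to D10 and -0.01 from D10 to D20, beside 0.02 and -0.10 for all genes.

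The upstream genes of the pathway were present in every group apart from the ligands. Of 5 interferon genes in the table, Ifnb1, Ifnab, Ifne and Ifnz were at 0 to 2 counts and Ifnk at 0 to 4 counts in each library, and other interferon genes were not analysed here. Of the receptor chains, Ifnar1 had between 104 and 193 CPM and Ifnar2 between 9.72 and 31.8 CPM over all 10 libraries, and all 6 chains tested were higher in CD organoids than at D10 and than at D20 at the looser threshold, which 22.1% and 21% of all genes passed in that direction. Ifngr1, a chain of the interferon gamma receptor, had between 35.2 and 67.6 CPM in UB organoids, 210 and 199 CPM in CD organoids and 29.9 and 30.5 CPM in adult mCD. It rose in CD organoids against D10 (2.03 ± 0.21, adjusted p = 2.3e-06) and fell in adult mCD against CD organoids by 2.75 ± 0.23 (adjusted p = 2.26e-07).

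The kinases took no common course. Jak1 had 153 and 158 CPM at D5, 280 and 407 CPM at D10, 774 and 730 CPM at D20, 251 and 249 CPM in CD organoids and 393 and 363 CPM in adult mCD, and rose from D5 to D20 by 2.27 ± 0.13 (adjusted p = 2.13e-08). Jak2 ran from 68.7 to 149 CPM and Tyk2 from 27.4 to 47.7 CPM, and neither was called. Stat3, which cytokines of the IL-6 type activate through JAK kinases, had between 55.5 and 78.4 CPM in UB organoids, 311 and 308 CPM in CD organoids and 583 and 527 CPM in adult mCD, and rose in CD organoids against both days. Irf8 fell in CD organoids, from 12.0 and 13.1 CPM at D20 to 0.570 and 1.20 CPM.

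Irf1 and 3 of 6 feedback inhibitors stood out in adult mCD. Irf1 had between 10.1 and 20.3 CPM in UB organoids, 38.3 and 38.6 CPM in CD organoids and 575 and 520 CPM in adult mCD, and rose in the last against CD organoids by 3.83 ± 0.12 (adjusted p = 1.69e-11). Socs3, an inhibitor of JAK kinases that cytokines induce, had between 8.99 and 24.0 CPM in UB organoids, 26.3 and 27.1 CPM in CD organoids and 591 and 575 CPM in adult mCD. Socs1 was less abundant, with 1.14 and 1.68 CPM in CD organoids and 14.3 and 16.0 CPM in adult mCD, and Cish had 17.5 and 19.2 CPM and then 246 and 220 CPM. These 3 of 6 inhibitors rose in adult mCD against D20 and against CD organoids, where 12.3% and 9.84% of all genes rose. The other 3 were not called against D20. At the looser threshold 5 of the 6 were higher there and 1 lower (29.3% and 27.1% of all genes).

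**Figure D5:**
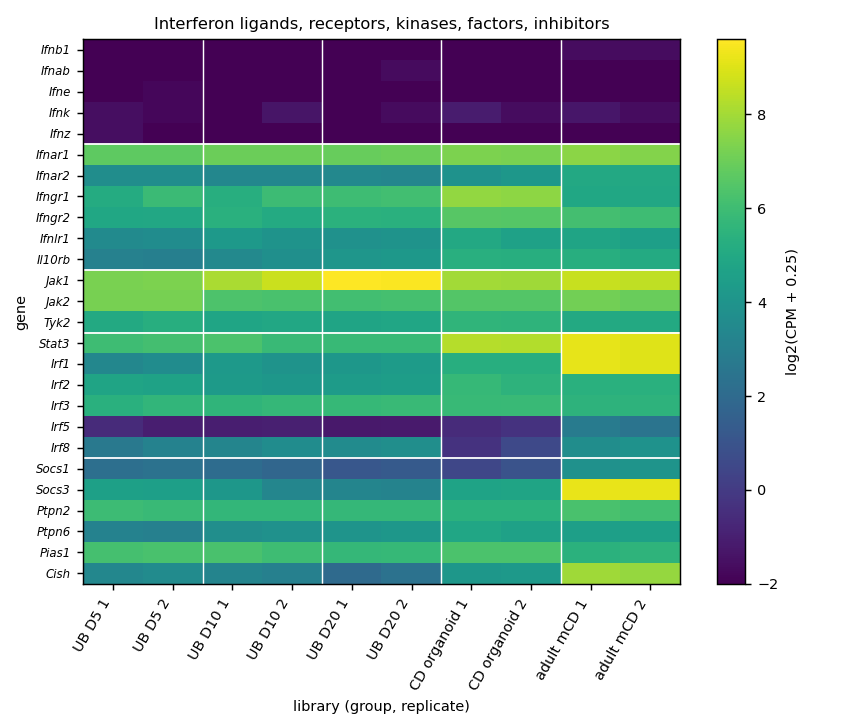
Heat map of log2(CPM + 0.25) of 26 upstream genes (rows: interferon ligands, receptor chains, JAK kinases, STAT and IRF factors, inhibitors, white lines between them) in the 10 libraries (columns). The ligands are near the bottom of the scale in all libraries, the receptor chains and kinases are expressed in every group, and Irf1, Socs3 and Cish are lightest in adult mCD.

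Interferon-stimulated and class I genes outside the list numbered 52. In CD organoids 17 of them rose against D10 (4.96% of all genes) and 20 against D20 (4.74%), and none fell. In adult mCD 32 rose against D20 (12.3%) and 12 against CD organoids (9.84%), and none fell. Lgals9 had at most 0.132 CPM in UB organoids, 17.3 and 16.2 CPM in CD organoids and 18.9 and 22.0 CPM in adult mCD. Other genes with a similar level in both were Lgals3bp (54.1 and 55.0 CPM, then 66.9 and 64.3 CPM) and Uba7, the enzyme that activates ISG15 (31.1 and 30.2 CPM, then 21.1 and 21.9 CPM). The class I heavy chain gene H2-D1 had between 2.41 and 21.9 CPM in UB organoids, 169 and 162 CPM in CD organoids and 578 and 553 CPM in adult mCD. Ifi203 and Sp100, in contrast, had at most 0.401 CPM in any organoid library and reached 39.9 and 33.9 CPM, and 17.1 and 16.0 CPM, in adult mCD.

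Markers of other cell types also differed between the groups, in an order that depended on the cell type. The sum of 8 endothelial markers was 937 and 912 CPM in adult mCD. It was 4.20 and 5.21 CPM in CD organoids, below the 8.86 to 24.0 CPM of UB organoids. That of 8 proximal tubule markers was 3520 and 4246 CPM in adult mCD. It was 5.91 and 9.70 CPM in CD organoids and 9.59 to 34.1 CPM in UB organoids. The sum of 10 leukocyte markers was 57.9 and 58.3 CPM in adult mCD and 52.9 and 46.6 CPM in CD organoids, against 2.73 to 14.1 CPM in UB organoids. In CD organoids it came mostly from Ptprc, at 43.7 and 37.4 CPM, while Adgre1 and Itgam were at 0 and Csf1r and Lyz2 at 0 to 3 counts. In adult mCD Csf1r stood at 26.2 and 30.0 CPM and Lyz2 at 5.35 and 5.82 CPM, with 6 of the 10 markers over 3 counts in both libraries. The sum of 6 stromal markers was 161 and 87.1 CPM in CD organoids, 108 and 119 CPM in adult mCD and 9.95 to 28.7 CPM in UB organoids. The part of these cells in the levels of interferon-stimulated genes was not tested.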

How the data were processed

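RNA-seq libraries of 10 samples (5 groups of 2) were analysed from 1 deposited table. The authors trimmed reads (FastQC 0.11.8, cutadapt 2.5 and Trimmomatic 0.36 are listed in the submitters' processing notes), aligned them with STAR and counted them in Partek Flow on GRCm38 with GENCODE vM24, sharing reads that map to several genes by a model, so that families of similar genes are uncertain. Whether strand was used is not stated, so overlapping genes cannot be separated. The labels and the study's methods name different extraction and library kits. The authors deposited whole-number counts, RPKM, and signal values scaled by TMM. Counts were tested here, RPKM chose the 3 most abundant genes, and the deposited TMM signal was used in alternatives only.

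Genes with a summed count of at least 10 (24410 of 39273) were fitted in 1 model of 5 group means with edgeR 4.0.16 (TMM, quasi-likelihood test, prior count 1) in R 4.3.3. All adjusted p-values are Benjamini-Hochberg adjusted over the 24410 genes. Standard errors are approximate, taken from the fold change and its F statistic. Where a ratio against a group with 1 to 3 counts is printed, it carries an exact 95% interval. Where a bound against a group at 0 is printed, that group was set to 3 counts. Other calls and log2 fold changes against such groups carry neither, among them Xaf1 and Oas1a against D20. The same holds for Gbp2, Trim30a and Ifi27 at D20 against D5. Intervals and limits cover counting error only. Levels per kilobase use the summed exons of GENCODE vM21, since for 21 of the 37 genes the deposited length is over 1.5 times that sum. Positions are of GRCm38. The script was tested on simulated data. DESeq2 1.42.0, limma 3.58.1 on log2(deposited TMM value + 1), library totals, another filter, a prior count of 5, fits of only the groups compared, a replicate block and leaving out each library were tried as alternatives. The members and the lists of pathway and marker genes were chosen with earlier results of these data known. Named genes were every member called in at least 1 comparison and the 3 with the highest mean RPKM. The other members were named after their values were seen, and genes outside the list where they were called, belonged to the ligands, receptors, kinases or factors, or marked a cell type. The 24 symbols that occur more than once in the table include no member. Values of a few pathway and marker genes are not reported here.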

Additional observations from a re-analysis of the deposited data

How the results depend on the processing

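The numbers of genes called in CD organoids and adult mCD held within 1.5 times under every alternative run at the same threshold, while those between UB organoid days, which rest on few genes, did not. In adult mCD against CD organoids, 5 values lost their call with limma on the deposited TMM values, as 5 did with library totals. With a threshold of 0.05 on the adjusted p and none on the fold change, 11 genes were higher and 8 lower at D10 than at D5 (15.8% and 16.9% of all genes). At D20 than at D10 there were 6 and 7 (13.0% and 16.0%), and at D20 than at D5 there were 11 and 5 (20.6% and 24.6%). At that threshold CD organoids had 31 higher against D10 and 29 higher and 1 lower against D20, and adult mCD had 28 higher and 4 lower against CD organoids. A prior count of 5 left 1 gene higher at D10 than at D5, and 1 higher and 1 lower at D20 than at D5, and it moved the median log2 fold change to 1.71 in CD organoids against D10 and to 3.88 in adult mCD against D20. It left 15 genes higher in CD organoids against D10, without Ifit3b, Oas1a, Mx2, Isg15 and Usp18, and 13 against D20, without Irf7, Ifit3b, Oas1a, Isg15, Usp18 and Psmb9. A fit of only the groups compared left 0 higher and 1 lower at D10 than at D5. Library totals moved the medians to 3.94 in adult mCD against D20 and 1.42 against CD organoids, since they move all genes, and Ifi35 then lost its call against D20. In medians added after seeing the data, DESeq2 gave 2.97 in CD organoids against D10, limma gave 3.92 and 1.45 in adult mCD against D20 and CD organoids, and leaving out 1 library gave 2.23 to 2.55 and 2.02 to 2.13 in CD organoids against D10 and D20 and 4.05 to 4.62 in adult mCD against D20. Leaving out 1 library gave between 1 and 5 higher and 2 and 3 lower at D10 than at D5, and between 0 and 1 in each direction at D20 than at D10, the highest of each without the second D10 library. It gave 4 to 5 higher at D20 than at D5, 19 to 20 in CD organoids against D10, 17 to 19 against D20, 29 in adult mCD against D20 and 15 to 16 against CD organoids. Where no construction of the alternative shows the cause, the cause was not tested. In a fit with the replicate number as a block, all counts stayed as they were, at 3 higher and 2 lower, 0 and 0, 5 and 2 between UB days and 20, 19, 29 and 15 higher and 0 lower in the other comparisons. The numbers share no stated source, and deviations of same-numbered libraries correlated between -0.0541 and 0.105 over 10 pairs of groups. With library totals or the deposited TMM values, scalings chosen after seeing the data, 29 genes still had both CD organoid libraries above all UB organoid libraries. Of single values checked, 1804 kept direction and side of the threshold, 58 lost and 8 gained a call, and 1 turned, Tap1 in CD organoids against D20, with -0.32 to 0.13 when 1 library was left out. Depth limits Oas3, Mx1, Isg15, Ifit3 and Ifit3b in UB organoids, which stood at a few counts. It also limits Oas1a, Oas2 and Psmb8, with at most 5 counts in each UB organoid library. Xaf1, Ifi44, Trim30a and Ifi27, with at most 9 counts there, are limited in the same way.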
